A study of Homo sapiens with 8 samples.

Results

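Aminoacyl-tRNA synthetases attach each amino acid to its tRNA, and human cells carry one set of enzymes for the cytosol and another, encoded in the nucleus, for mitochondria. Genes were taken by symbol: 19 encode cytosolic enzymes or enzyme subunits, 16 encode mitochondrial enzymes and 3 encode scaffold proteins, AIMP1, AIMP2 and EEF1E1. All 38 were found among the 14668 gene symbols of the count table under their current names.

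The cells were T3M4, an established line from a human pancreatic cancer. One arm, sgControl, expressed a non-targeting guide RNA, and the other, sgMETTL13, a guide RNA against METTL13, a methyltransferase whose known substrate is the elongation factor eEF1A. Both arms were starved of serum for 18 h, after which 10% FBS was added back for 2 h. The labels do not state whether the guided cells were a clone or a pool, nor whether replicates came from separate cultures. The p-values therefore reflect library-to-library spread, which may be technical. RNA-seq counted poly(A) mRNA, and ribosome profiling counted footprints, the mRNA fragments covered by ribosomes, with 2 libraries in each of the 4 groups. Totals ran from 20860953 to 48353722 counts in mRNA and from 6063885 to 9837253 counts in footprints. METTL13 footprints were lower in both sgMETTL13 libraries (20.1 and 26.2 CPM) than in both control libraries (65.2 and 57.8 CPM). The 6 epithelial markers summed to between 2860 and 4180 CPM per mRNA library. Fibroblast markers (5 of 6 in the table) summed to at most 32.9 CPM, the 2 leukocyte markers of 5 that were in the table to at most 49.3 CPM, and endothelial markers to at most 1.59 CPM. None of these other-type markers was at 0 in all mRNA libraries, while COL3A1 reached at most 0.0963 CPM and PTPRC at most 0.0422 CPM.

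A charged tRNA leaves its synthetase and is carried to the ribosome by eEF1A bound to GTP. Several cytosolic synthetases sit in one large assembly, the multi-synthetase complex, which AIMP1, AIMP2 and EEF1E1 (also called AIMP3) hold together, and other synthetases work outside it. Many cytosolic synthetase genes are known targets of ATF4, the transcription factor induced when amino acids run short. The 2 catalytic folds of these enzymes, class I and class II, are unrelated in structure, and phenylalanyl-tRNA synthetase of the cytosol is built from 2 different subunits, FARSA and FARSB.

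Footprints of the synthetase genes moved in both directions, with more gains than losses. Of the 38 genes, all of which passed the filter on low counts, 11 were higher and 2 lower in sgMETTL13 by edgeR's quasi-likelihood test (adjusted p below 0.05 over all genes). Over all 10714 genes tested, 8.94% were called higher and 12% lower. The gains comprised 5 of 19 cytosolic genes, 4 of 16 mitochondrial genes and 2 of 3 scaffold genes, and both losses were cytosolic. The median log2 fold change was 0.23 for cytosolic, 0.14 for mitochondrial and 0.65 for scaffold genes, against 0.01 over all genes tested. The arms did not overlap in 22 genes in the upward and 7 in the downward direction, where 64.1% of all genes had arms that did not overlap. No difference between the cytosolic, mitochondrial and scaffold groups was tested. These counts moved with the libraries kept, as did those over all genes. Without sgControl replicate 2, 3 of the set rose and none fell, where 2.86% of all genes were called higher and 4.64% lower. Without sgMETTL13 replicate 2, 2 rose and none fell, against 2.33% and 4.11% of all genes. Without sgControl replicate 1, 14 rose and 4 fell, against 12.7% and 14.6%. When one model shared the spread of all 8 libraries, no member and 0 genes in all passed, while 941 genes had an unadjusted p under 0.05 in edgeR. In bulk lysates fewer cells that express a gene and less of it per cell cannot be told apart.

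**Figure D1:**
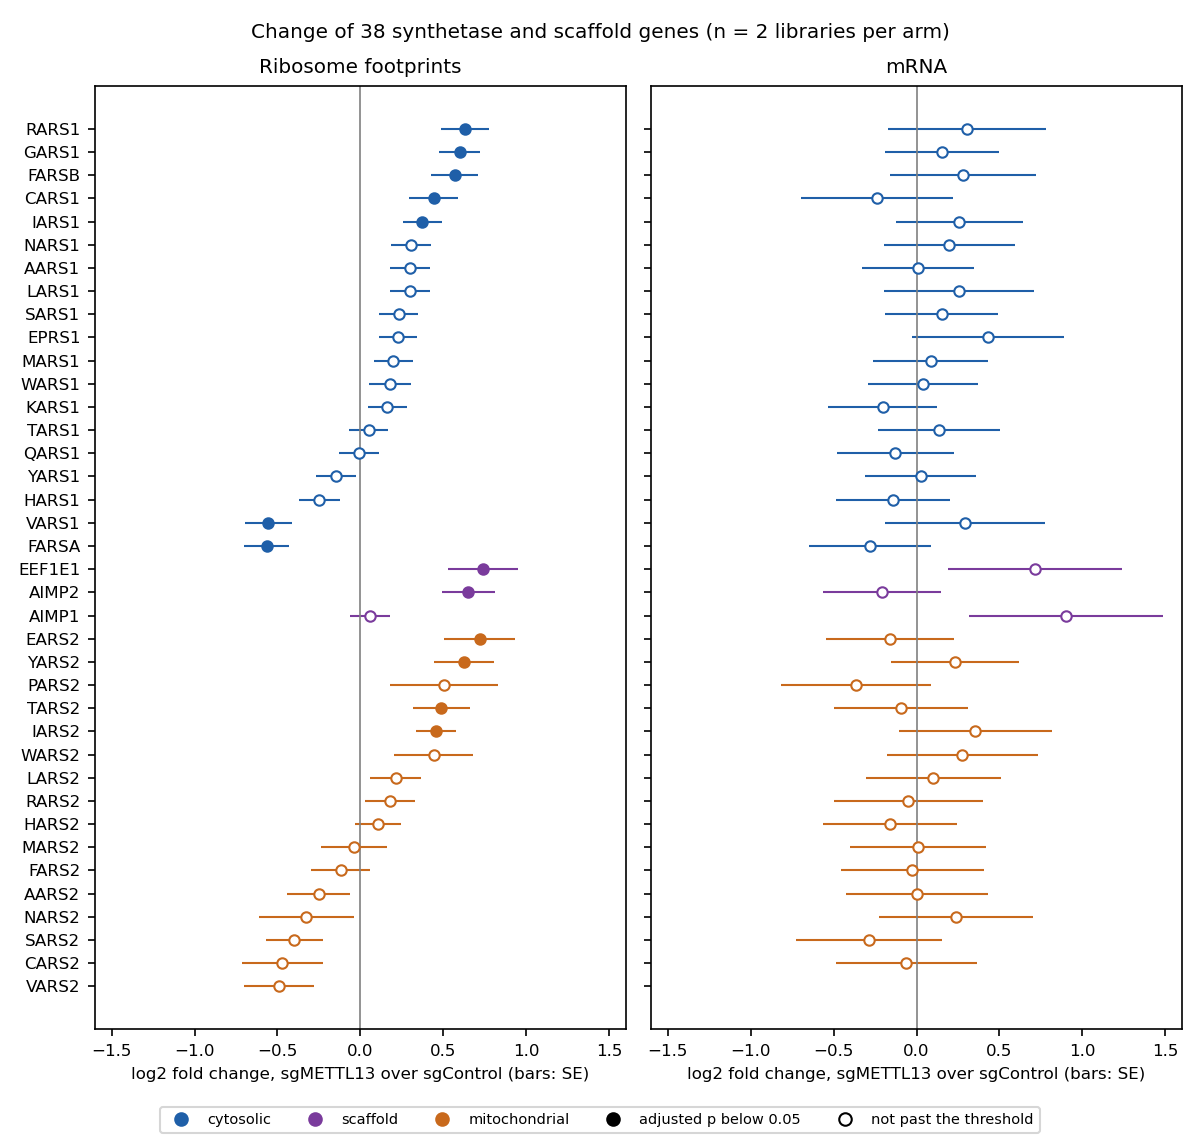
Log2 fold change of sgMETTL13 over sgControl (x axis) for each of the 38 genes (y axis), with bars of 1 SE, in footprints (left) and mRNA (right), and filled points for genes past an adjusted p of 0.05. In footprints 13 genes are filled, from EEF1E1 at 0.74 to FARSA at -0.57, and in mRNA none is filled. VARS2 is missing from the right panel, because its mRNA counts did not pass the filter.

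Among the cytosolic enzymes RARS1, GARS1 and FARSB rose most in footprints. RARS1, the arginyl enzyme of the multi-synthetase complex, read 298 and 193 CPM in sgControl replicates 1 and 2, against 368 and 396 CPM in sgMETTL13 (CPM are counts scaled to library size with TMM factors). Its log2 gain was 0.63 (SE 0.146, n = 2 per arm, adjusted p = 0.00278 by edgeR), and its lowest library was sgControl replicate 2. GARS1 encodes the glycyl enzyme of both compartments and read 510 and 425 CPM against 673 and 743 CPM. The gain of 0.60 (SE 0.124) had the smallest adjusted p of the 38 genes (edgeR, 0.00107), and both sgMETTL13 libraries lay above both controls. IARS1, the isoleucyl enzyme of the complex, read 616 and 588 CPM against 786 and 775 CPM, a narrow spread within each arm and a log2 fold change of 0.37 (edgeR adjusted p = 0.0223). CARS1, the cysteinyl enzyme, was a smaller signal at 45.1 and 53.3 CPM against 69.1 and 64.1 CPM, or 0.44 on the log2 scale (edgeR adjusted p = 0.033). Of the 13 called genes, GARS1 alone kept its call without each footprint library in turn, with a log2 fold change between 0.47 and 0.74. RARS1 lost its call without sgControl replicate 2 (0.35) and read 0.98 without sgControl replicate 1. IARS1 lost it without sgControl replicate 2 (0.34), sgMETTL13 replicate 1 (0.36) or sgMETTL13 replicate 2 (0.39), and CARS1 without sgControl replicate 1 (0.32), sgMETTL13 replicate 1 (0.38) or sgMETTL13 replicate 2 (0.49).

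The subunits of phenylalanyl-tRNA synthetase went opposite ways. FARSA, the alpha subunit, read 370 and 477 footprint CPM in the controls against 316 and 256 CPM, or -0.57 on the log2 scale (SE 0.135, adjusted p = 0.00358 by edgeR). FARSB, the beta subunit, read 97.6 and 79.5 CPM against 118 and 145 CPM, or 0.57 (SE 0.143, adjusted p = 0.00543 by edgeR). The log2 ratio of FARSA to FARSB footprints was 1.92 and 2.59 in the control libraries and 1.42 and 0.82 in the sgMETTL13 libraries. The ratio is not divided by gene length, so only its change between libraries can be read, and with 2 libraries against 2 a two-sided exact permutation test cannot go below p = 0.333, so the ratio was not tested. All control ratios lay above all sgMETTL13 ratios in footprints, by 1.14 on average. FARSA was lower and FARSB higher in both sgMETTL13 libraries than in both controls. That order of the ratios was therefore fixed by the single genes and adds no evidence to their calls. In mRNA the same ratio was 1.17 and 1.72 in sgControl and 0.06 and 1.91 in sgMETTL13, so the arms overlapped. Each subunit lost its call without sgControl replicate 2 (FARSA -0.38, FARSB 0.43) and without sgMETTL13 replicate 2 (FARSA -0.42, FARSB 0.42).

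**Figure D2:**
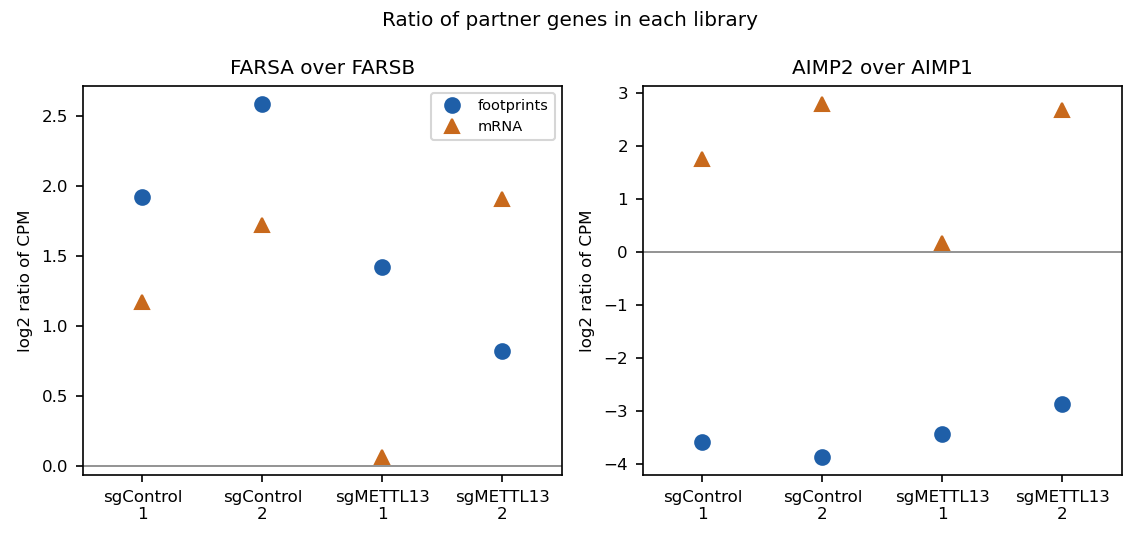
Log2 ratio of CPM (y axis) in each of the 4 library pairs of arm and replicate (x axis), for FARSA over FARSB (left) and AIMP2 over AIMP1 (right), with circles for footprints and triangles for mRNA. The footprint ratio of FARSA to FARSB is lower in both sgMETTL13 libraries, while the mRNA ratio reaches both its lowest (0.06) and its highest value (1.91) in sgMETTL13.

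VARS1, the valyl enzyme that is known to associate with the eEF1 complex, was the other gene that fell. Footprint CPM were 142 and 167 in the controls and 117 and 92.2 under the METTL13 guide, or -0.56 on the log2 scale (SE 0.142, adjusted p = 0.00578 by edgeR). VARS2, the mitochondrial valyl enzyme, read 13.5 and 14.4 CPM against 10.4 and 9.44 CPM, and its log2 value of -0.49 did not pass (adjusted p = 0.0954 by edgeR). For VARS1 the call was lost without sgControl replicate 2 (-0.44) or sgMETTL13 replicate 2 (-0.39). The mRNA counts of both genes were far out of proportion to their footprints. VARS1 had 60 and 31 mRNA counts in sgControl and 62 and 101 in sgMETTL13, and VARS2 had 4 and 3 against 15 and 7. VARS1 lies at chr6:31777518-31795752 and VARS2 at chr6:30914238-30926459 (GRCh38.p14), within the major histocompatibility region. Between 28 and 34 Mb of chromosome 6, 27 of 42 genes with over 5 footprint CPM in control cells had footprints more than 16 times their mRNA CPM (64.3%), against 235 of 8585 genes elsewhere (2.74%), a window and cut-offs chosen after the values were seen. Why mRNA counts were low there was not tested, and no mRNA or footprints-per-mRNA value of these valyl genes is read as a level below.

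The remaining 12 cytosolic genes did not pass in footprints, and their log2 fold changes ran from -0.25 for HARS1 to 0.30. NARS1, AARS1 and LARS1, the asparaginyl, alanyl and leucyl enzymes, each read 0.30 with adjusted p of 0.07, 0.067 and 0.0672 (edgeR). TARS1, the threonyl enzyme, had the most footprint counts of the set, with 1980 and 2120 CPM in the controls against 2250 and 1990 CPM, and its arms overlapped. EPRS1, which joins the glutamyl and prolyl enzymes in one chain, read 1570 and 1520 CPM against 1870 and 1750 CPM and did not pass at 0.23 on the log2 scale (SE 0.115, adjusted p = 0.158 by edgeR). QARS1, the glutaminyl enzyme, read 340 and 353 CPM against 352 and 337 CPM, with overlapping arms. Of the 7 enzymes of the multi-synthetase complex in the set, 2 rose (RARS1 and IARS1) and none fell, with a median of 0.23. Of the 12 cytosolic genes outside it, 3 rose and 2 fell, with a median of 0.21. By catalytic fold, 6 of 18 class I enzymes rose and 1 fell (median 0.21), and 3 of 16 class II genes rose and 1 fell (median 0.13). Over all genes tested 8.94% were called higher and 12% lower, and no difference between these groups was tested.

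The scaffold genes of the multi-synthetase complex did not move as one. EEF1E1, which also interacts with the eEF1 complex, read 18.9 and 11.1 footprint CPM in the controls against 22.0 and 29.1 CPM, a log2 gain of 0.74 (SE 0.21, adjusted p = 0.0124 by edgeR). AIMP2 read 46.2 and 39.8 CPM against 57.2 and 78.5 CPM, a log2 gain of 0.65 (SE 0.161, adjusted p = 0.00457 by edgeR). In both genes sgMETTL13 replicate 2 was the highest library and sgControl replicate 2 the lowest. AIMP1, whose C-terminal part is released as a cytokine, read 558 and 585 CPM against 618 and 572 CPM and did not pass (log2 fold change 0.06, SE 0.119, edgeR adjusted p = 0.768). AIMP2 lost its call without sgMETTL13 replicate 2 (0.41). EEF1E1 lost its call without sgControl replicate 2 (0.43) or sgMETTL13 replicate 2 (0.53) and read 1.2 without sgControl replicate 1.

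Footprints per mRNA in control cells set the scaffold genes apart from each other. AIMP1 had 15.5 footprint CPM for each mRNA CPM, AIMP2 0.249 and EEF1E1 0.61. AIMP1 was the highest of the set after the valyl genes, with mRNA of 47.0 and 26.9 CPM in the controls, and AIMP2 was among the lowest, with mRNA of 158 and 187 CPM. RefSeq lists numbered pseudogenes for AIMP1 and EEF1E1 and none for AIMP2, and whether short footprints were shared with copies was not tested. The ratio between genes depends on the share of each transcript that is coding, because footprints cover the coding part and mRNA reads the whole transcript.

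**Figure D3:**
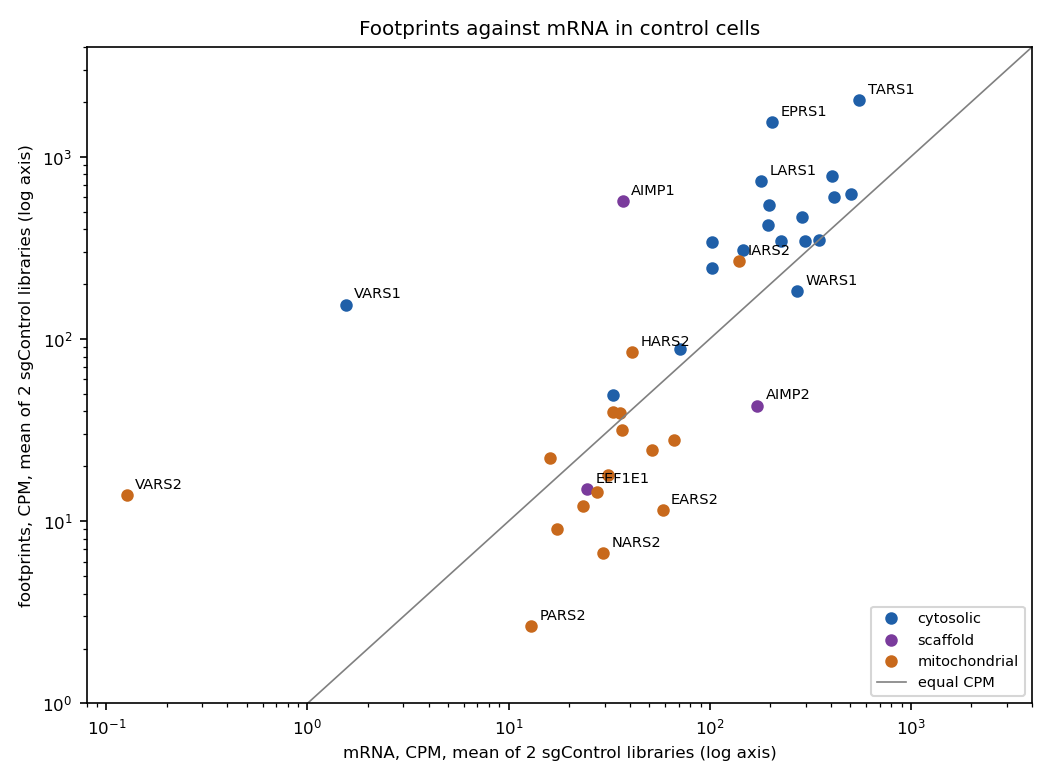
Mean footprint CPM (y axis) against mean mRNA CPM (x axis) over 2 sgControl libraries each, both on log axes, for the 38 genes coloured by group, with a line where both are equal. All but 1 of the 19 cytosolic genes lie on or above the line, most mitochondrial genes lie below it, and VARS1 and VARS2 lie far to the left.

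Cytosolic enzymes had more footprints per mRNA than mitochondrial ones in control cells. The median log2 ratio was 0.83 over the 18 cytosolic genes other than VARS1 (0.97 with it) and -0.92 over the 15 mitochondrial genes measured in both assays, against -0.22 over 10446 genes. Of these 18 cytosolic genes 17 lay above that median of all genes, as did 6 of the mitochondrial genes. The highest cytosolic ratios belonged to EPRS1 at 7.55 footprint CPM per mRNA CPM, LARS1 at 4.09 and TARS1 at 3.70. The lowest cytosolic ratio was 0.673 for WARS1, the tryptophanyl enzyme, which is known as an interferon-induced gene. Among mitochondrial genes HARS2 stood at 2.07 and IARS2 at 1.93, and the lowest were EARS2 at 0.197, PARS2 at 0.205 and NARS2 at 0.227. In sgMETTL13 cells the medians were 1.05 for the same cytosolic and -0.74 for mitochondrial genes, against -0.35 over all genes. These are descriptions with no test, and the length of untranslated sequence in each gene, which enters the ratio, was not measured.

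Of the mitochondrial enzymes EARS2, YARS2, IARS2 and TARS2 rose in footprints and none fell. EARS2, which charges mitochondrial tRNAs with glutamate, read 13.9 and 9.06 CPM in the controls against 16.8 and 21.8 CPM, a log2 gain of 0.72 (SE 0.216, adjusted p = 0.0173 by edgeR). Its counts were small, 115 and 53 in the controls against 165 and 199. YARS2, the tyrosyl enzyme, read 29.9 and 25.6 CPM against 34.0 and 52.3 CPM, a log2 gain of 0.63 (SE 0.181, adjusted p = 0.0134 by edgeR), and sgMETTL13 replicate 2 was the highest library. IARS2 was the most abundant mitochondrial gene by counts, with 279 and 258 CPM against 377 and 359 CPM, a log2 gain of 0.46 (SE 0.122, adjusted p = 0.00853 by edgeR). TARS2 read 27.6 and 21.4 CPM against 31.6 and 37.7 CPM, close to the threshold (log2 fold change 0.49, edgeR adjusted p = 0.0431). All 4 had arms that did not overlap, as had 64.1% of all genes, which adds little for genes picked by a test of the same libraries. All 4 lost their calls without at least 1 library. Without sgControl replicate 2 the log2 fold changes were 0.46 for EARS2, 0.52 for YARS2, 0.39 for IARS2 and 0.32 for TARS2, and none of them passed. Without sgMETTL13 replicate 2 they were 0.52, 0.29, 0.49 and 0.36, again with no call. IARS2 also lost its call without sgMETTL13 replicate 1 (0.41), and EARS2 read 1.09 without sgControl replicate 1.

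The other 12 mitochondrial genes ranged from -0.49 for VARS2 to 0.51 for PARS2 on the log2 scale. PARS2, the prolyl enzyme, had only 20 and 17 counts in sgControl and 39 and 32 in sgMETTL13, with an SE of 0.326. SARS2, the seryl enzyme, read 28.9 and 34.2 CPM against 22.5 and 25.2 CPM and did not pass (log2 fold change -0.40, edgeR adjusted p = 0.0921). Without sgControl replicate 1 SARS2 read -0.52, CARS2, the mitochondrial cysteinyl enzyme, -0.75 and WARS2, the tryptophanyl enzyme, 0.83. These were named after their values were seen. HARS1 and HARS2, the histidyl enzymes, lie head to head with 84 bases between them and read -0.25 and 0.11, neither past the test.

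Set side by side by amino acid, cytosolic and mitochondrial enzymes did not always read alike. For isoleucine both genes rose, IARS1 by 0.37 and IARS2 by 0.46, and the log2 ratio of their footprints stayed within 1.06 to 1.19 in the 4 libraries. For tyrosine YARS1 read -0.15 without a call and YARS2 rose by 0.63. The log2 ratio of YARS1 to YARS2 footprints was 3.53 and 3.76 in sgControl and 3.22 and 2.56 in sgMETTL13. For cysteine CARS1 rose by 0.44 while CARS2 read -0.47 without a call (adjusted p = 0.172 by edgeR). The arms of CARS2 overlapped (9.68 and 14.4 CPM against 6.91 and 10.2 CPM), and its value ran from -0.77 to -0.19 as each library was left out. Their log2 ratio was 2.22 and 1.89 in the controls and 3.32 and 2.65 in sgMETTL13, with no overlap. For threonine the log2 ratio of TARS1 to TARS2 was 6.17 and 6.63 in sgControl and 6.15 and 5.73 in sgMETTL13. For arginine that of RARS1 to RARS2 was 2.88 and 2.34 against 3.01 and 3.18. Arms of the footprint ratio did not overlap for these amino acids, nor for isoleucine (1.14 and 1.19 against 1.06 and 1.11). With 2 libraries an arm these ratios were not tested.

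**Figure D4:**
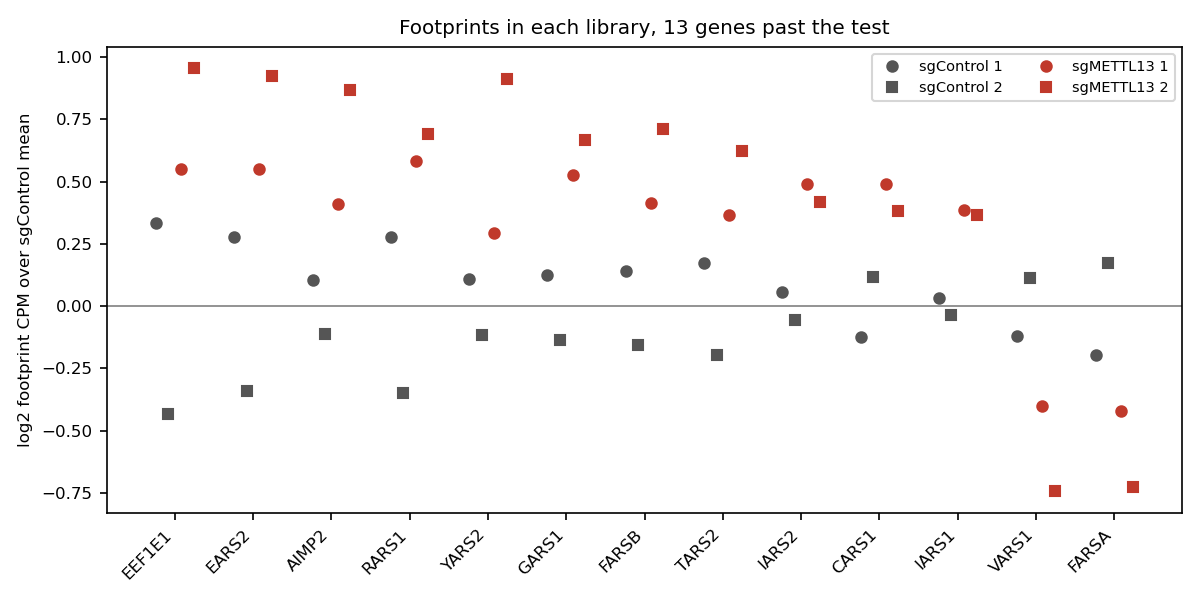
Footprint CPM of each library as log2 over the mean of the 2 sgControl libraries (y axis) for the 13 genes past the test (x axis), with circles for replicate 1, squares for replicate 2, grey for sgControl and red for sgMETTL13. The red points lie above the grey ones in 11 genes and below them in VARS1 and FARSA, and the squares of both arms lie farther apart than the circles in most genes.

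The replicates themselves differed along the direction of these calls. In 10 of the 11 genes that rose, sgControl replicate 1 lay above sgControl replicate 2 in footprints, by a median log2 difference of 0.26. In 3 of the 11, sgMETTL13 replicate 1 lay above replicate 2, and the median difference was -0.25. In both genes that fell the order of the replicates was the other way round in each arm. Among the 25 genes without a call, 12 had the higher control value in replicate 1. The part of this replicate difference in the calls was not tested beyond leaving out each library.

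Members known as ATF4 targets read mostly above 0. Of these 12 cytosolic genes, 11 had a positive log2 fold change in footprints, as did 5460 of all 10714 genes tested. Among the 12, 3 rose (CARS1, GARS1 and IARS1) and none fell, with a median of 0.27. The other 7 cytosolic genes gave 2 that rose and 2 that fell, with a median of -0.01. The list of 12 rests on background knowledge and was drawn up with results of these data known, so the split is a description. Beyond the set, 26 further ATF4 and amino acid response genes gave 6 that rose and 1 that fell in footprints, with a median of 0.10. Over all genes tested 8.94% were called higher and 12% lower. The gene that fell was SESN2, named after its value was seen. With a replicate block or in DESeq2 0 of the 26 were called lower, where 9.45% and 8.15% of all genes were. Of the 26 genes, 16 read above 0 and 10 below, the latter including TRIB3 (-0.298), DDIT4 (-0.28) and DDIT3 (-0.082), all without a call. The 4 genes of smallest adjusted p in edgeR all rose. SLC38A2, an amino acid transporter, rose by 1.35 (SE 0.155), the serine synthesis gene PSAT1 by 1.13, the cystine transporter SLC7A11 by 0.835 and the serine synthesis gene PSPH by 0.81. These 4 kept their calls without each footprint library in turn. ATF4 itself, with footprint CPM of 20.7 and 22.1 in the controls against 19.8 and 16.9, was not called.

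The promoters of several cytosolic synthetase genes carry a C/EBP-ATF type element, a response element through which ATF4 is known to act, shown here because it lay mainly in the cytosolic genes. RefSeq promoter windows (GRCh38.p14, 250 bases before to 50 after a start site) were matched for 33 of the 38 genes, 11 of them with more than 1 window. The motif TGATGCAA, searched on both strands, lay in the windows of 6 of 16 cytosolic genes (37.5%), of 0 of 14 mitochondrial genes and of 0 of 3 scaffold genes. It was found for 0.855% of 11818 genes of the table with a window, and counted by windows in 6 of 21 cytosolic ones (28.6%) and 0.615% of all. The looser motif TGATGNAA, which contains the first one, added GARS1 and the mitochondrial gene YARS2 and was found for 3.06% of all genes. Stretches around the match follow, 5′ to 3′ on the strand of the gene, with the match in capitals, first for 4 genes that rose in footprints and then for 2 that did not pass.
CARS1, chr11:3057410-3057433, minus strand: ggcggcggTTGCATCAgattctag
GARS1, chr7:30594837-30594860, plus strand: cgcggcgaTTTCATCAtgctccga
IARS1, chr9:92293698-92293730, minus strand: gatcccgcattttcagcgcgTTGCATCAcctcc
YARS2, chr12:32756067-32756114, minus strand: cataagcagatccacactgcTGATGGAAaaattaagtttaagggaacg
MARS1, chr12:57488056-57488079, plus strand: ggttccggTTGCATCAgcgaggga
TARS1, chr5:33440959-33440982, plus strand: cctttcgaTTGCATCAgctggtcc
In CARS1, GARS1, IARS1, MARS1 and TARS1 the motif reads on the opposite strand, and in YARS2 on the strand of the gene. The first base of the match lay 13 bases before the start site in IARS1 and 197 before it in YARS2. In MARS1 and CARS1 it lay 4 and 2 bases before the start, so the match ran across it. In TARS1 it lay 2 bases after, and in GARS1 33 bases before, a start within the span of the gene. Of the 6 cytosolic genes with TGATGCAA, 2 rose in footprints (CARS1 and IARS1), while AARS1, MARS1, NARS1 and TARS1 did not pass. A match describes these letters only, and none of the files measured a factor at these sites.

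Partner genes of tRNA charging gave 3 that rose and 1 that fell in footprints of 17, where 8.94% of all genes were called higher and 12% lower. GATB, a subunit of the amidotransferase that completes mitochondrial glutaminyl-tRNA after EARS2 has loaded glutamate, read 31.5 and 29.4 CPM against 53.0 and 53.2 CPM, a log2 gain of 0.80 (SE 0.154, adjusted p = 0.00052 by edgeR). The other subunits of that enzyme did not pass, with GATC at -0.30 and QRSL1 at 0.09, both named after their values were seen. SSB, the La protein that binds new tRNA transcripts, rose by 0.57, and XPOT, the tRNA exporter, by 0.53. ELAC2, which trims the 3′ ends of tRNA precursors, read 345 and 457 CPM in the controls against 290 and 229 CPM and fell by 0.625 on the log2 scale (SE 0.139, adjusted p = 0.00199 by edgeR). Without sgMETTL13 replicate 2, SSB (0.49), XPOT (0.52) and ELAC2 (-0.46) lost their calls, and ELAC2 read -0.41 without sgControl replicate 2, while GATB kept its call without each library.

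No synthetase mRNA passed the test, nor did any other of 12468 genes (0% called in either direction). METTL13, the targeted gene, was not called either. Its mRNA read 89.7 and 71.4 CPM in the controls against 25.2 and 35.1 CPM (log2 fold change -1.42, edgeR unadjusted p = 0.00457). In simulated counts the mRNA test recovered 3% of 2-fold changes, so a missing call does not show that mRNA stayed level. Among the 37 genes tested none reached an unadjusted p of 0.05 in edgeR, and DESeq2 and limma voom also called none of them. The log2 fold changes ran from -0.36 for PARS2 to 0.90 for AIMP1, with SE between 0.328 and 0.587. The smallest p belonged to AIMP1, EEF1E1 and EPRS1. For AIMP1 the mRNA CPM were 47.0 and 26.9 in the controls against 111 and 26.9, so sgMETTL13 replicate 1 lay above both controls and replicate 2 level with the lower one. EEF1E1 mRNA was likewise highest in sgMETTL13 replicate 1, at 29.9 and 19.2 CPM against 59.7 and 20.9 CPM, as did EPRS1 at 243 and 166 CPM against 403 and 148 CPM. KARS1, the lysyl enzyme of both compartments, was the only 1 of the 37 whose mRNA arms did not overlap, at 356 and 341 CPM against 310 and 296 CPM, where 12% of all genes had such arms.

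The sgMETTL13 mRNA libraries stood apart from each other for these genes. The log2 difference between replicates 1 and 2 ran from -0.95 for CARS1 to 2.05 for AIMP1. Its SD, from CPM with a small prior count, was 0.829 over the 37 genes and 0.847 over all genes. In sgControl mRNA that SD was 0.325, and in the footprints of the 38 genes it was 0.274 in sgControl and 0.26 in sgMETTL13. RARS1, EEF1E1, EPRS1, IARS2, LARS1 and FARSB mRNA were higher in sgMETTL13 replicate 1, by 1.23 to 1.55 on the log2 scale. These 6 genes were also higher in sgControl replicate 1, by 0.17 to 0.64, and AIMP1 by 0.80. Without sgMETTL13 replicate 2, mRNA of 6 genes was called higher (AIMP1 1.58, EEF1E1 1.27, EPRS1 0.98, IARS2 0.90, RARS1 0.88 and FARSB 0.77) and CARS1 lower (-0.79). Of all genes 18.7% were called higher and 1.19% lower in that fit, so the gains of the set were no more frequent than those of genes at large. Without sgMETTL13 replicate 1 none was called, and AIMP1, EEF1E1 and EPRS1 read -0.39, -0.17 and -0.40. The mRNA direction of these genes therefore depended on which of the sgMETTL13 libraries was kept.

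**Figure D5:**
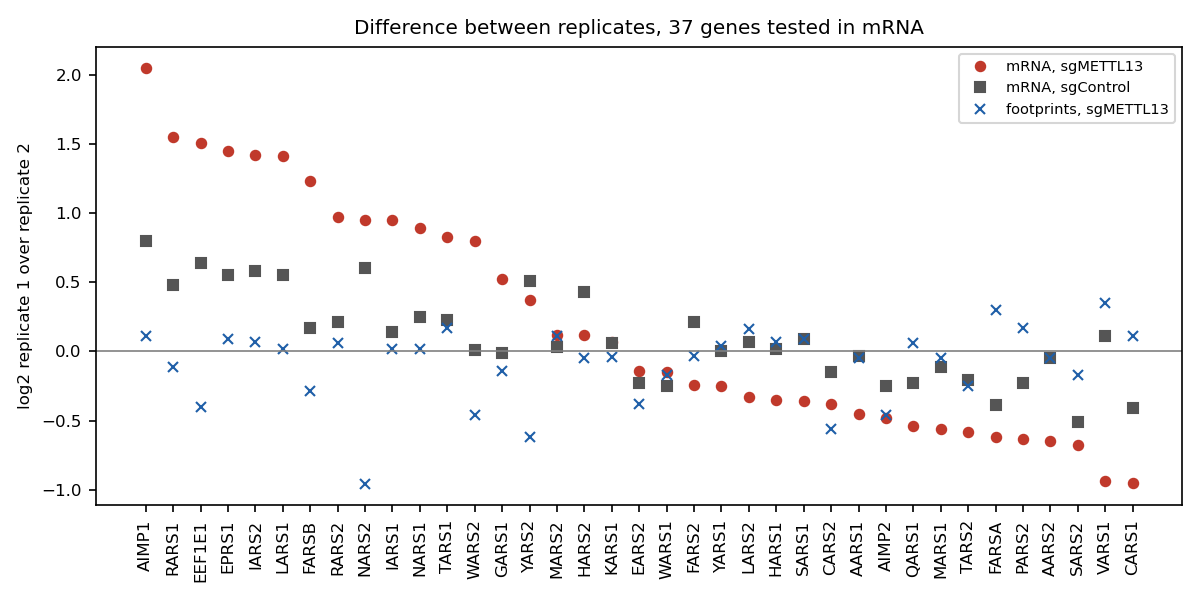
Log2 of replicate 1 over replicate 2 (y axis) for the 37 genes tested in mRNA (x axis), with circles for sgMETTL13 mRNA, squares for sgControl mRNA and crosses for sgMETTL13 footprints. The circles run from 2.05 for AIMP1 to -0.95 for CARS1, a wider range than the squares, and the crosses lie between 0.35 for VARS1 and -0.96 for NARS2.

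Footprints per mRNA, tested as the interaction of guide and assay over all 8 libraries, gave no call among the 37 genes tested (0% of 10446 genes called by edgeR). None reached an unadjusted p of 0.05 in edgeR, and DESeq2 and limma voom called none of the set. The SE of the 37 genes ran from 0.286 to 0.746, and in simulated counts this test recovered 5% of 2-fold changes. A missing call therefore does not show that footprints per mRNA stayed level. The median was 0.13 for cytosolic and 0.14 for mitochondrial genes, against -0.10 over all genes tested. AIMP2 came closest, with a log2 difference of 0.88 (SE 0.396, edgeR unadjusted p = 0.0529), followed by EARS2 at 0.92 and PARS2 at 0.88. AIMP2 had 0.249 footprint CPM per mRNA CPM in sgControl and 0.454 in sgMETTL13, and EARS2 0.197 and 0.37. GARS1, whose footprint call held without each library, read 0.47 (SE 0.332) per mRNA without a call. Without sgMETTL13 mRNA replicate 2 4 genes were called higher (AIMP2 at 1.23, PARS2 at 1.33, CARS1 and TARS2) and AIMP1 was called lower, where 1.59% of all genes were called higher and 10% lower. Without sgMETTL13 mRNA replicate 1 VARS1 was called lower, as were 2.86% of all genes, and its mRNA counts were low as described above.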

How the data were processed

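Raw counts per gene symbol for 8 libraries were deposited by the authors in one table. The submitters' processing notes name cutadapt 1.18, Bowtie 1.2.2, HISAT2 2.0.4, UMI-tools, featureCounts and the hg38 build. Their order and the handling of reads with several matches are not given in the sources used here, so the 13 genes with numbered pseudogenes in RefSeq are less certain. A count of 0 allows up to 0.495 CPM in footprints and 0.144 CPM in mRNA at the lowest depth, a limit of counting alone.

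Samples were grouped by the labels. The quasi-likelihood test of edgeR 4.0.16 (R 4.3.3) was run with TMM factors, the default filter and Benjamini-Hochberg adjustment over all genes tested, separately for footprints and mRNA. Footprints per mRNA were the interaction term over all 8 libraries. An SE is the size of the log2 change divided by the root of F. In simulated counts with 200 changed genes, 84% of 2-fold changes were recovered in footprints, 3% in mRNA and 5% in footprints per mRNA. A coding length was not used here, so the planned comparison of levels between genes per length was not made.

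Members and lists were chosen with earlier results of these data known. Named genes were those called in footprints, scaffold genes, FARSA and FARSB, the members of smallest p in each test, the extremes of the set, and up to 4 genes of each further list. Other genes named were chosen after their values were seen. Alternatives were DESeq2 1.42.0, limma 3.58.1 voom, other size factors and filters, leaving out each library, a replicate block, and 1 model of all 8 libraries. Some genes of the further lists are not reported here by name.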

Additional observations from a re-analysis of the deposited data

How the results depend on the processing

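All 13 called footprint changes kept their sign under every alternative run, and all 13 lost their calls when the 8 libraries shared one model. There 0 members were called higher and 0 lower (0 cytosolic, 0 mitochondrial, 0 scaffold), as were 0 partner genes and 0 ATF4 genes in either direction. Leaving out 1 footprint library gave 2 to 14 members higher and 0 to 4 lower. These ranges were 2 to 7 and 0 to 2 for cytosolic genes, 0 to 5 and 0 to 2 for mitochondrial genes, 0 to 2 higher for scaffold genes, 1 to 3 and 0 to 2 for partner genes, and 4 to 7 and 0 to 1 for ATF4 genes. The lowest counts of members came without replicate 2 of either arm, where the shares of all genes called were also lowest. Leaving out 1 mRNA library gave 0 to 6 members higher and 0 to 1 lower, and for footprints per mRNA leaving out 1 library gave 0 to 4 and 0 to 1. The fits behind those mRNA and footprints-per-mRNA calls are described above with their shares over all genes. Library totals in place of TMM gave 8 cytosolic genes higher (5 with TMM), where 8.66% of all genes were called higher (8.94% with TMM). DESeq2 gave 2 mitochondrial genes higher (4 in edgeR) and 0 ATF4 genes lower. It called 5.66% of all genes higher and 8.15% lower, against 8.94% and 12% in edgeR.

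With a replicate block 3 cytosolic genes were called higher and 0 ATF4 genes lower, and CARS1, IARS1 and TARS2 lost their calls. In that fit 6.68% of all genes were called higher and 9.45% lower, against 8.94% and 12% without the block. The labels give the libraries only a shared number. Over 10446 genes the deviations of same-numbered libraries correlated at -0.194 between the arms in footprints and 0.435 in mRNA, and at 0.173 (sgControl) and 0.0136 (sgMETTL13) between assays. With the numbers crossed, an alternative added after the data were seen, 8 cytosolic genes were higher, 1 mitochondrial gene lower and 2 ATF4 genes lower. Calls were more frequent over all genes too, with 14.1% higher and 15.9% lower. Of the members, 4 of 38 in footprints, none of them called, 32 of 37 in mRNA and 23 of 37 in footprints per mRNA took both signs as libraries were left out. Values ranged for AIMP1 footprints (0 to 0.12), and in mRNA for AIMP1 (-0.39 to 1.58), EEF1E1 (-0.17 to 1.27) and EPRS1 (-0.40 to 0.98), the lowest each time without sgMETTL13 replicate 1 and the highest without replicate 2. No coding length was used, so the alternative of levels without division by length was not run.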
